A study of Rattus norvegicus with 12 samples.

Results

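Late stretch was set against early stretch in cultured heart muscle cells of newborn rats. The comparison rests on 6 of the 12 arrays of the series, chosen by their labels: 3 cultures of neonatal rat ventricular cardiomyocytes (NRVCM) stretched for 24 h and 3 stretched for 2 h. All 12638 named genes that passed a filter on dim probes were tested. The cells were grown for 24 h in medium with 10% serum and then exposed to pulsatile stretch along both axes to 20% elongation on silicone membranes coated with collagen type I. A further 3 cultures stretched for 6 h and 3 unstretched control cultures on the same kind of membrane were used to follow each gene from its starting level; the labels give no culture time for the controls. The labels call the cultures biological replicates but do not say whether they came from separate cell isolations, so p-values measure the spread between these cultures only. All groups were wild-type cells with no added agent, as far as the labels say, and no change between 24 h and 2 h was separated from the longer time in culture. Each culture was read on 1 single-colour Agilent array, and the level of a gene is given as a relative intensity, its processed signal as a multiple of the 75th percentile of the same array.

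Mechanical load on cardiomyocytes acts through stretch-sensitive ion channels, integrins and the sarcomere itself. Immediate-early transcription factors and heat-shock genes belong to the fast phase of the response, and natriuretic peptides, cytoskeletal genes and a lower expression of genes for fatty acid burning and repolarising ion currents are known features of sustained load. Preparations of neonatal ventricular cells also hold fibroblasts, endothelial cells and macrophages, which contribute to the RNA of the culture.

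The probes of 4 genes on which the results turn are shown as the array design gives them, 5′ to 3′ in lower case, because the measured change is the change in binding to these letters: 2 genes that were above control at 2 h and below it at 24 h, and 2 of the genes with the largest rise.
Adgre1, chrUn:64821266-64823251 (rn4, plus strand): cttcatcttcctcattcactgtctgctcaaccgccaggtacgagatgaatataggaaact
Kcnip2, chr1:251011241-251011585 (rn4, minus strand): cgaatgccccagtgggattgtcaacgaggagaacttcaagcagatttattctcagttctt
Stmn4, chr15:45794337-45794396 (rn4, plus strand): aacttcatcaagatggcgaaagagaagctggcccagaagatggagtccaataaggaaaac
Gdf15, chr16:19313390-19313449 (rn4, plus strand): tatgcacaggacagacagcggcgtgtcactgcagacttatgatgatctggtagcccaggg
The intervals of Adgre1 and Kcnip2 are longer than their 60-base probes.

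The arrays carried strong signals of the labelled cell type. Of 16 cardiomyocyte markers, 16 were well above background on all 12 arrays, and 13 of them were called lower and 1 higher at 24 h than at 2 h (median log2 change -0.36). The 75th percentile of the processed signal ran over 1138 to 1672 across arrays. No spot was saturated, and 64.7% to 70.6% cleared the scanner's background test. Slide 2 carried all 3 arrays of 24 h and 1 of 6 h; slide 1 carried the 2 h arrays, the controls and 2 of 6 h. The slide was therefore removed from the comparison only through the 6 h cultures: with slide as a fixed block, a change is the step from 2 h to 6 h on slide 1 plus the step from 6 h to 24 h on slide 2, and that second step rests on 1 array of 6 h.

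Between 24 h and 2 h, 6205 of 12638 genes were called (49.1%, limma, Benjamini-Hochberg adjusted p below 0.05). Of these, 2406 genes (19.0% of those tested) were higher and 3799 (30.1%) were lower at 24 h, and the median gene moved by -0.04 on the log2 scale. Changes of at least 2-fold were mostly decreases, with 72 genes higher and 347 lower. The arrays of 24 h and of 2 h did not overlap for 7301 genes (57.8%). With slide as a fixed block 1771 genes (14.0%) were called, 465 higher and 1306 lower. Of the 6205 genes, 6155 kept their sign with the block and 1743 were called again. The median standard error was 0.13 with the block and 0.07 without it. Of the genes called with at least a 2-fold change, the block kept 48 of 72 higher and 262 of 347 lower.

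The split between higher and lower genes depended on the scale. Lower genes made up 61.2% of the calls on the main scale, 29.6% after scaling by the array median, 29.3% by spike-in spots, 41.2% after quantile normalization, 50.4% in the deposited series matrix, 73.6% with no filter on dim probes and 73.7% with the slide block. The median gene moved by 0.12 when scaled by the array median and by 0.21 when scaled by the spike-in spots. The spike-in scale rests on 7 probes. Their mean log2 signal ran over 10.66 to 11.04 in the controls, 10.48 to 10.67 at 2 h and 10.47 to 10.73 at 24 h. That spread enters the change of every gene on that scale, so a call lost there does not by itself show that a change is absent. The calls on every scale test a log2 change against 0. List medians are therefore to be set beside the median gene of the same scale.

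Stmn4, which encodes a microtubule-binding protein of the stathmin family, had the largest rise among genes named by the rule. Its relative intensity was 0.320, 0.329 and 0.335 in the cultures of 24 h, against 0.0407, 0.0455 and 0.0405 in those of 2 h. All 3 late cultures lay far above the early ones, 7.79-fold on average (log2 change 2.96 ± 0.22, SE, n = 3 per group, limma adjusted p = 4.19e-06), and the change was 2.31 with the slide block. The control cultures, at 0.0434, 0.0295 and 0.0463, were close to those of 2 h.

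Gdf15, a secreted stress cytokine of the TGF-beta superfamily, stood at 1.26, 1.10 and 1.09 at 24 h, against 0.378, 0.343 and 0.340 at 2 h. The groups did not overlap, and the rise was 3.25-fold (1.70 ± 0.12, adjusted p = 1.98e-06). The 2 h cultures differed from control by -0.05. Scn3b, a beta subunit of voltage-gated sodium channels, was at 1.15, 1.33 and 1.12 at 24 h, against 0.347, 0.421 and 0.417 at 2 h, a 3.04-fold rise. Slc4a11, a membrane transporter (3.49-fold), Duox2, an oxidase that makes hydrogen peroxide (3.36-fold), Sypl2, a membrane protein of the muscle triad (2.93-fold), and Gal, the neuropeptide galanin (2.84-fold), rose at signals that were above background at both times. With a background correction by normexp the log2 change was 0.91 for Duox2 and 0.69 for Gal, against 1.75 and 1.50 on the main scale. The sizes of these 2 genes therefore depended on the background step, while Gdf15 kept 1.59.

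For 7 of the 15 genes with the largest rise no array of 2 h was well above background, so only a bound can be given. The forkhead factor Foxa2 was at least 3.87-fold higher at 24 h (adjusted p = 8.27e-05) and the clock repressor Ciart at least 3.47-fold (adjusted p = 4.20e-05). The heparan sulfate sulfotransferase Hs3st2 was at least 3.09-fold higher and the protease Capn8 at least 2.66-fold. The bound of Capn8 rested on the second culture of 24 h, since its relative intensities at 24 h were 0.0128, 0.0745 and 0.0122, and it was 1.47-fold without that culture, a value added after seeing the data. The carboxylesterase Ces1c was 3.19-fold higher by its own dim signal at 2 h, so its size is not resolved. Proca1 and the steroid enzyme Hsd3b1 followed at 2.23-fold and 2.21-fold as lower bounds. The sizes depended on the background step. With a background correction by normexp the log2 change was 0.33 for Foxa2, 0.33 for Ciart, 0.32 for Ces1c, 0.24 for Hs3st2 and 0.51 for Capn8, where the calls of Hs3st2 and Capn8 were lost. It was -0.011 for Proca1 and -0.014 for Hsd3b1, so their direction depended on that step too. With the slide block the calls of Hs3st2, Capn8, Proca1 and Hsd3b1 were lost (adjusted p = 0.129, 0.181, 0.347 and 0.103). The keratin Krt6c was above background on 1 of 3 arrays of 2 h, and its change of 1.56 became -0.070 with the slide block and 0.15 with normexp, with no call in either setting. Its limma adjusted p of 0.0446 became 0.0245 to 0.142 with 1 replicate left out.

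**Figure D1:**
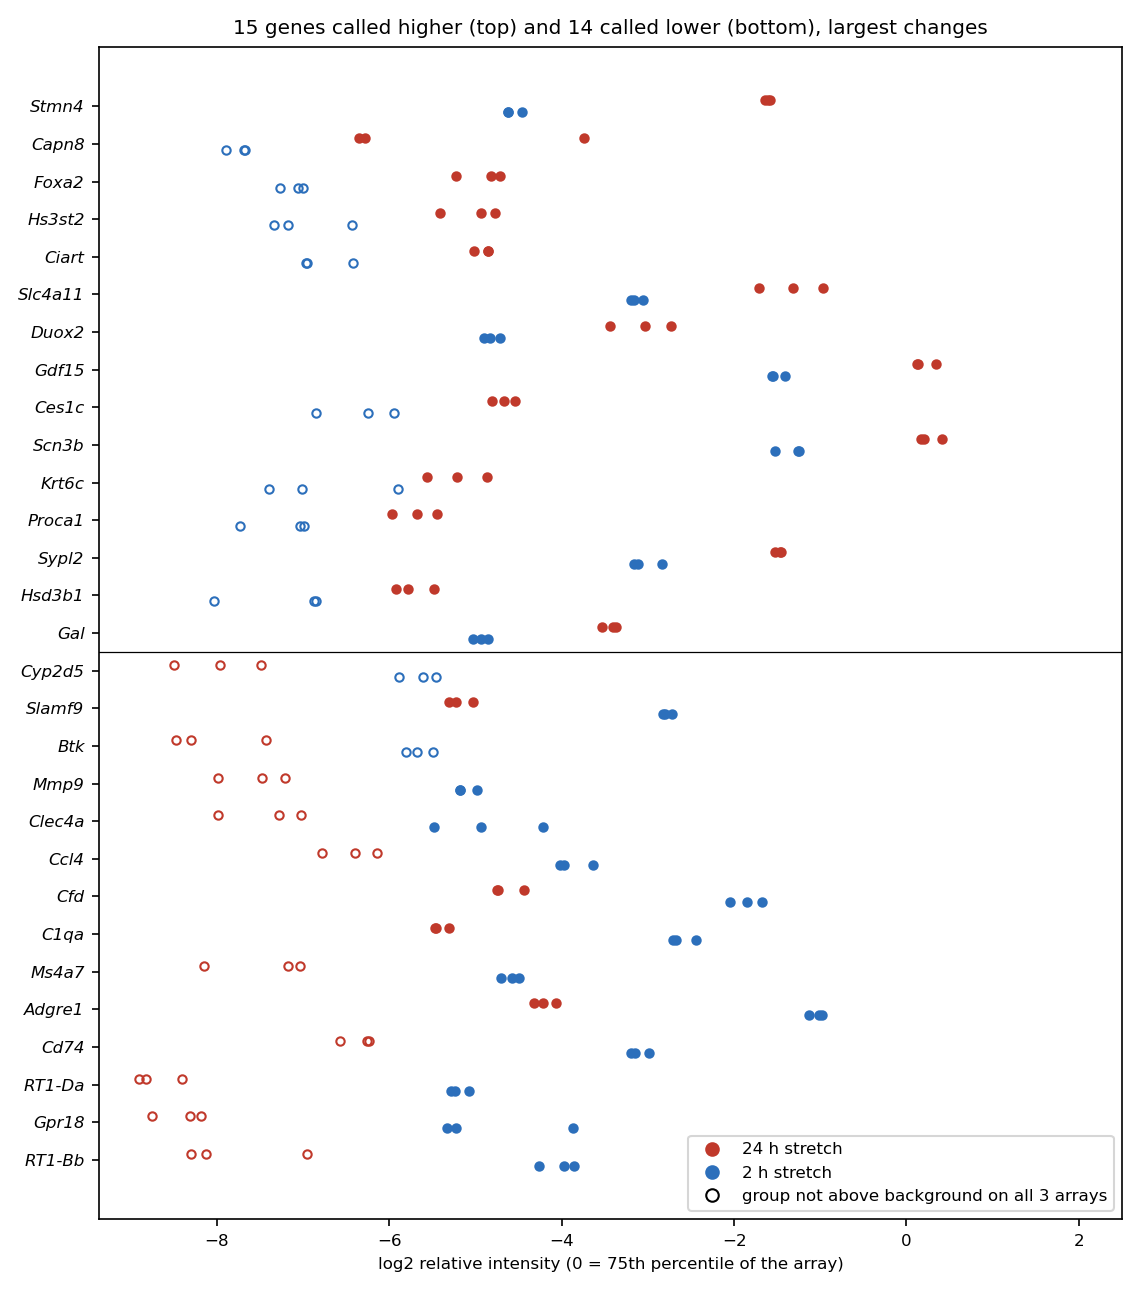
Relative intensity on the log2 scale (x axis, 0 is the 75th percentile of the array) of the 15 genes called higher (upper panel part) and 14 of the 15 called lower (lower panel part) with the largest changes. Each point is 1 array, with 24 h in red above 2 h in blue, and open points mark groups that were not well above background on all 3 arrays; of the 15 higher genes 7 had no array above background at 2 h, and of the 14 lower genes shown 8 had none at 24 h.

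The lower end of the comparison was led by genes of macrophages and other leukocytes. Of 22 listed markers 18 passed the filter, and 18 of 18 were called lower at 24 h (0 higher), with a median log2 change of -1.51 against -0.04 over all genes. The arrays of the groups overlapped for 0 of the 18. Over all genes 30.1% were called lower, and the groups did not overlap for 57.8%. With the slide block 18 were called lower at a median of -1.47, and with spike-in scaling 17 were called lower at a median of -1.25. The summed relative intensity of the 18 genes was 8.71 to 9.78 in the cultures of 24 h, against 25.1 to 29.0 in those of 2 h and 23.5 to 24.1 in the controls. Fewer cells of a type and less RNA per cell cannot be told apart in such bulk samples.

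Adgre1 encodes a surface receptor by which rodent macrophages are recognised. It was at 0.0598, 0.0502 and 0.0536 at 24 h, against 0.458, 0.508 and 0.495 at 2 h and 0.312, 0.335 and 0.322 in the controls. The late cultures lay below all others and the early ones above all others, and the change between 24 h and 2 h was 8.95-fold down (-3.16 ± 0.08, adjusted p = 1.52e-08). Cd74, the invariant chain of MHC class II, was at 0.0105, 0.0131 and 0.0133 at 24 h, where 1 of 3 arrays was above background, against 0.109, 0.126 and 0.112 at 2 h. With normexp the log2 change was -1.61 for Cd74 and -2.46 for Adgre1. The class II genes RT1-Bb and RT1-Da were not well above background on any array of 24 h and were at least 9.83-fold and 4.62-fold lower than at 2 h; close relatives of these genes may share their signal.

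The other markers were also lower. The complement gene C1qa was at 0.0227, 0.0227 and 0.0252 at 24 h, against 0.156, 0.153 and 0.184 at 2 h (6.97-fold lower). Its log2 change was -2.80 on the main scale and -1.77 with normexp. Aif1, a calcium-binding protein of macrophages, fell 4.59-fold, the lysozyme gene Lyz2 2.87-fold, the pan-leukocyte phosphatase Ptprc 2.81-fold, the lysosomal protein gene Cd68 2.68-fold and the receptor gene Csf1r 2.32-fold, while Cd14, a co-receptor for lipopolysaccharide, fell 1.42-fold. Aif1, Lyz2, Cd68, Csf1r and Cd14 were chosen after their values were seen. The complement protease Cfd (6.87-fold lower) and the immune receptor Slamf9 (5.30-fold lower) were also in the group with the largest decreases, as were the receptor Gpr18, the membrane protein Ms4a7, the lectin Clec4a, the gelatinase Mmp9, the kinase Btk and the cytochrome P450 Cyp2d5, for which no array of 24 h was above background. Their bounds ran from at least 3.29-fold for Btk to at least 6.27-fold for Ms4a7. With normexp the changes of these 6 genes were smaller, from -0.64 for Cyp2d5 to -1.11 for Gpr18, and RT1-Bb changed by -1.31 and RT1-Da by -0.93. At 2 h, 2 of 3 arrays were above background for Btk and 1 for Cyp2d5, whose close relatives may share its signal. The call of Gpr18 was lost with the slide block (adjusted p = 0.0778).

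**Figure D2:**
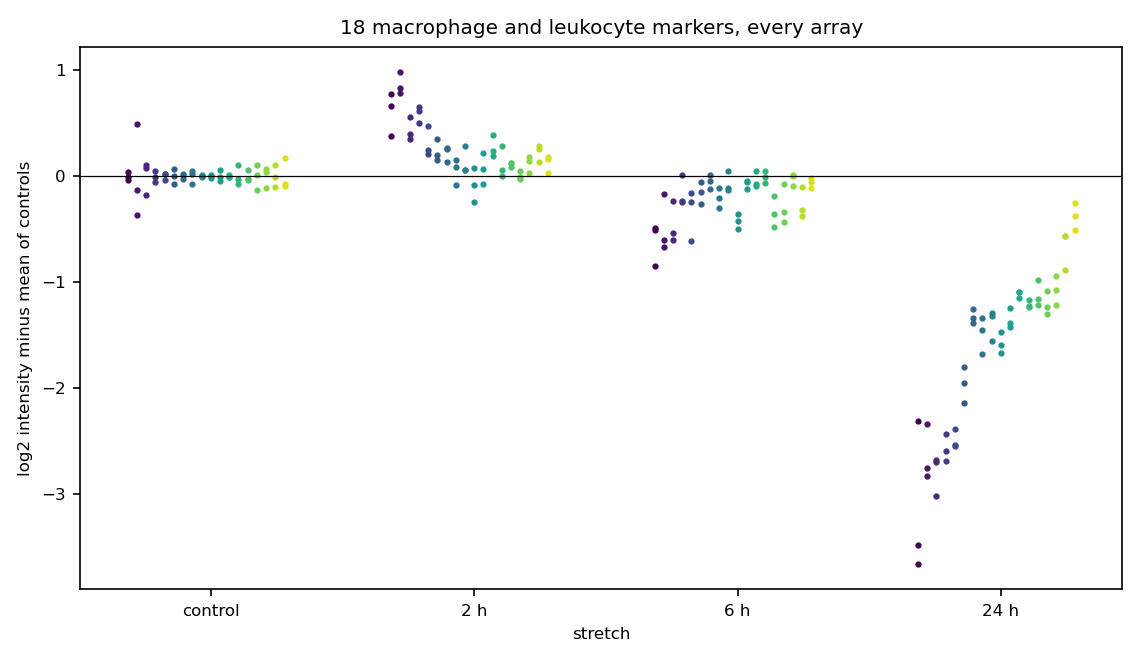
Log2 intensity of the 18 macrophage and leukocyte markers on every array (y axis), minus the mean of the 3 control arrays of the same gene, by stretch time (x axis). Each point is 1 gene on 1 array, and genes run in the same order and colour within each time, from the largest to the smallest change; the 24 h points all lie below 0, and the median gene stood at 0.18 at 2 h, -0.18 at 6 h and -1.37 at 24 h.

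Cytokine and NF-kB genes split. Of 28 tested, 9 were higher and 12 lower at 24 h (median -0.16). There were 2 higher and 11 lower with the slide block. With spike-in scaling 9 were higher and 7 lower, at a median of 0.09 against 0.21 over all genes. Tnf was at 0.0284, 0.0253 and 0.0337 at 24 h, against 0.101, 0.0966 and 0.127 at 2 h, a 3.71-fold decrease (-1.89 ± 0.13, adjusted p = 2.61e-06), and Il1b fell 3.83-fold. The chemokine Ccl4 fell 5.92-fold, with 2 of 3 arrays of 24 h above background, and Il1a was at least 4.50-fold lower. Under normexp the log2 change was -1.12 for Ccl4 and -0.89 for Il1a. These decreases stood beside the lower macrophage markers given above, and the part of those cells in them was not tested. On the other side, 2 chemokines of the same list, chosen after their values were seen, were higher: Ccl20 rose 2.15-fold and Cxcl1 2.09-fold, and Cxcl1 lost its call with the slide block (adjusted p = 0.225). Interferon-stimulated genes were mostly lower, with 2 higher, 15 lower and 7 of 24 not called (median -0.29). The slide block left 0 higher and 8 lower (median -0.38). With spike-in scaling 2 were higher and 4 lower, at a median of -0.04 against 0.21 over all genes. Usp18, which removes the ubiquitin-like protein ISG15, changed by -1.28 and the transcription factor Irf7 by -0.99.

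Genes of fatty acid oxidation formed the most uniform metabolic list. Of 36 tested (37 listed) 34 were lower at 24 h, 0 were higher and 2 were not called, with a median of -0.40. Hadh, a dehydrogenase of mitochondrial beta-oxidation, was at 7.27, 8.12 and 7.00 at 24 h, against 15.2, 14.0 and 14.1 at 2 h. The 3 late cultures were all below the early ones, 1.94-fold on average (-0.96 ± 0.07, adjusted p = 3.14e-06). The thiolase gene Acaa2 fell 1.71-fold, the lipid chaperone Fabp4 3.66-fold and the lipid-droplet protein gene Plin5 3.36-fold, where Plin5 was above background on 1 of 3 arrays of 24 h. The nuclear receptor Ppara, which drives many of these genes and was chosen after its values were seen, fell 1.67-fold. With the slide block 16 of the 36 were called lower at a median of -0.34. With spike-in scaling 5 of 36 were called lower, at a median of -0.14 against 0.21 over all genes.

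Oxidative phosphorylation genes were also lower, with 23 of 35 genes lower, 0 higher and a median of -0.23. The slide block left 7 lower. With spike-in scaling 0 were called, at a median of 0.02 against 0.21 over all genes. Among its members Cox8b, a muscle subunit of cytochrome oxidase, changed by -0.60 and the ATP synthase subunit gene Atp5f1b by -0.50, neither called with spike-in scaling and Atp5f1b not with the slide block. Glycolysis and hypoxia genes had 6 higher and 12 lower of 29 (slide block 1 and 6, spike-in scaling 2 and 1), led by the aldolase gene Aldoc, at 6.24, 7.14 and 6.10 at 24 h, against 17.1, 16.5 and 17.1 at 2 h (2.61-fold lower).

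Potassium and sodium channel genes, which set the resting potential and the shape of the action potential, were lower in 20 of 27 cases, higher in 3 and not called in 4 (median -0.51; slide block 13 lower and 1 higher; spike-in scaling 7 lower and 3 higher at a median of -0.26). Kcnip2 encodes KChIP2, the accessory subunit of the channels that carry the transient outward current. Its relative intensity was 0.0771, 0.0970 and 0.0665 at 24 h, against 0.351, 0.351 and 0.278 at 2 h and 0.190, 0.218 and 0.243 in the controls. It fell 4.10-fold (-2.04 ± 0.15, adjusted p = 2.88e-06), with no overlap between the groups. The sodium channel subunit gene Scn4b was 2.43-fold lower at 24 h and Kcnj12, an inward rectifier, 2.32-fold lower. Scn3b, the sodium channel subunit given above among the largest rises, was not a member of this list and is not in its counts. Kcnj2, the main ventricular inward rectifier, was not above background on any array of 24 h and on 2 of 3 at 2 h; it was 2.30-fold lower by its own dim signal, so the size is not resolved, and its call was lost with the slide block (adjusted p = 0.142). Kcne2, a small accessory subunit, went the other way from a level below background at 2 h and was 2.77-fold higher by that dim signal. Its size is not resolved, and normexp left a log2 change of 0.16 with no call.

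Calcium-handling genes had 14 lower, 1 higher and 6 of 21 not called (median -0.38). Hrc, a calcium-binding protein of the sarcoplasmic reticulum, was at 1.01, 1.05 and 0.950 at 24 h, against 2.52, 2.38 and 2.11 at 2 h, and fell 2.32-fold (-1.22 ± 0.07, adjusted p = 6.76e-07). Atp2a2, the calcium pump SERCA2 of the same compartment, was at 29.0, 28.3 and 27.9 at 24 h, against 46.4, 38.5 and 42.8 at 2 h, a 1.49-fold decrease. Casq1, the skeletal-type calsequestrin, was the member that rose, 2.07-fold, at 1.15, 1.14 and 1.20 at 24 h, against 0.564, 0.552 and 0.565 at 2 h. With the slide block 5 genes of this list were called lower and 1 higher, and with spike-in scaling 1 was called lower and 1 higher, so the call of Atp2a2 was lost in that setting.

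The contractile apparatus moved down by smaller steps. Of 22 sarcomere genes 17 were lower, 3 higher and 2 not called (median -0.31), with 5 lower under the slide block. With spike-in scaling 0 were lower and 1 higher, at a median of -0.06 against 0.21 over all genes. The M-line genes Myom1 and Myom2 changed by -0.71 and -0.69. Myh6, the alpha myosin heavy chain, was at 149, 131 and 144 at 24 h, against 202, 186 and 198 at 2 h (-0.47 ± 0.07, adjusted p = 3.58e-04), and Myh7, the beta chain, changed by almost the same amount (-0.46). The call of Myh6 was lost with the slide block and that of both genes with spike-in scaling. Cardiac transcription factors had 15 lower, 0 higher and 11 of 26 not called (median -0.26). With spike-in scaling 0 of them were called, at a median of -0.01 against 0.21 over all genes. On the main scale Irx4 changed by -0.67, Irx3 by -0.65 and Tbx5 by -0.54.

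**Figure D3:**
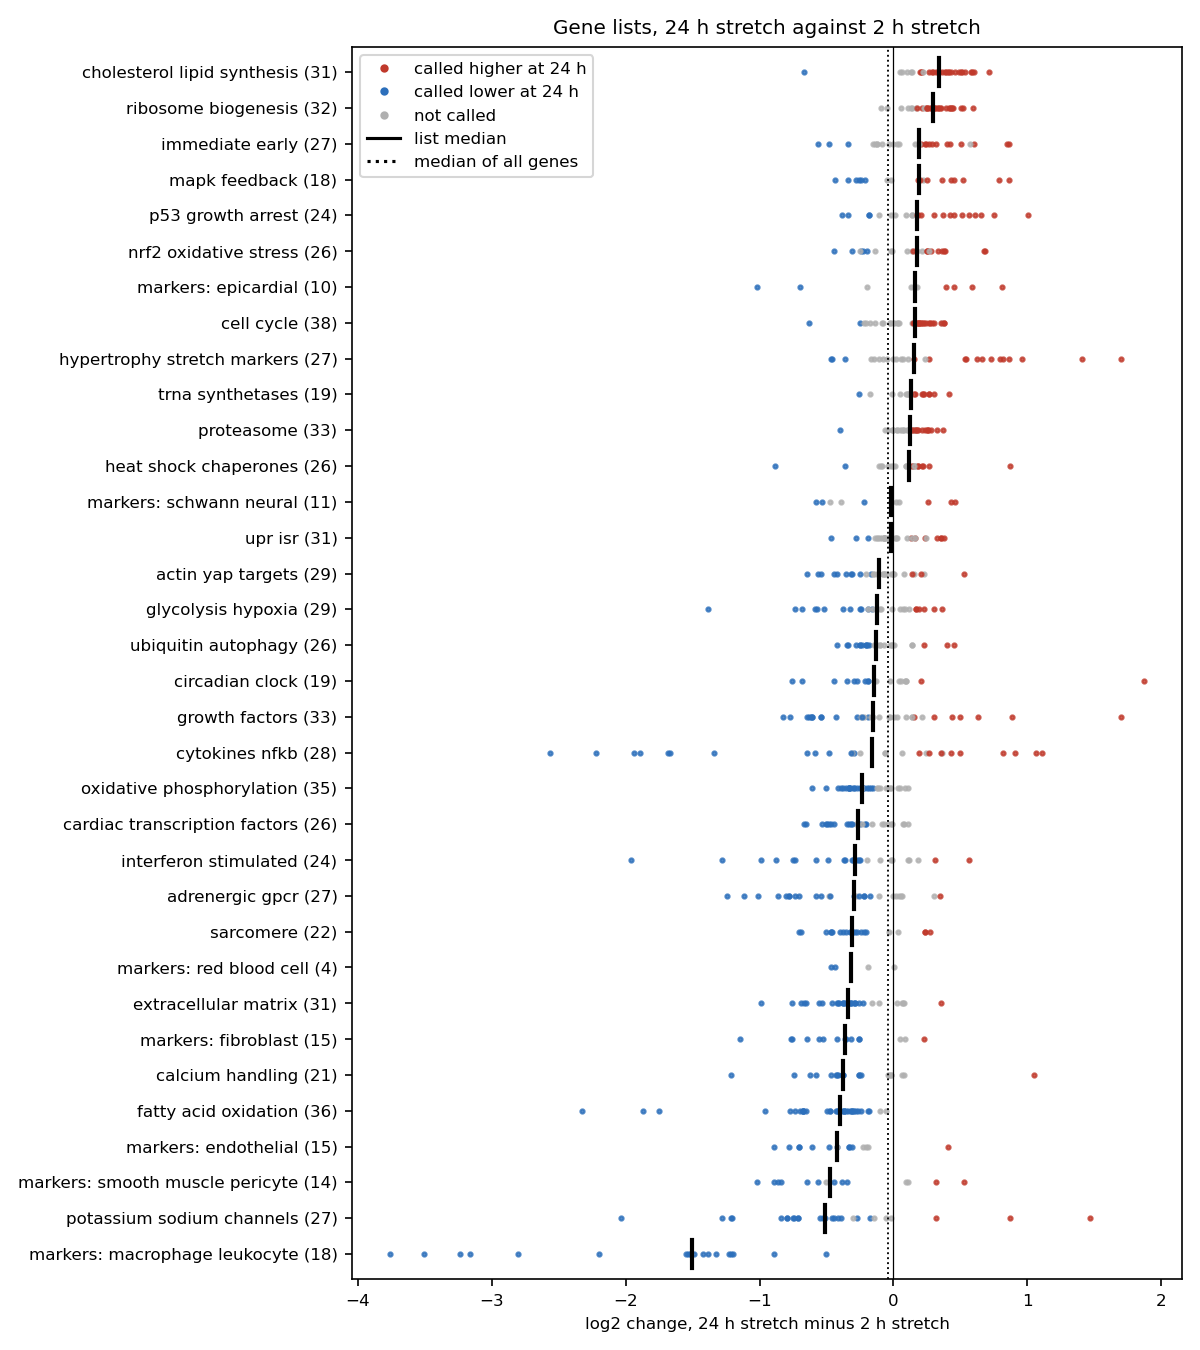
Log2 change, 24 h minus 2 h (x axis), of the tested members of each gene list (rows, number tested in parentheses). Each point is 1 gene, red when called higher at 24 h, blue when called lower and grey when not called; the black bar is the list's median and the dotted line the median of all genes at -0.04, and the macrophage and leukocyte list stands apart at -1.51 while cholesterol and lipid synthesis has the highest median at 0.34.

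Matrix and vessel genes were also lower late. Of 31 extracellular matrix genes 24 were lower and 1 higher (median -0.34), with 14 lower under the slide block. With spike-in scaling 1 was lower and 1 higher, at a median of -0.09 against 0.21 over all genes. Eln, elastin, was at 2.59, 2.37 and 2.85 at 24 h, against 5.10, 5.17 and 5.19 at 2 h, a 1.99-fold decrease. Postn, periostin, fell 1.69-fold and Col1a1, the main fibrillar collagen chain, 1.19-fold, the last with an adjusted p of 0.153 under the slide block. Fibroblast markers had 12 lower and 1 higher of 15 (median -0.36; slide block 8 lower and 0 higher; spike-in scaling 2 lower and 0 higher), with summed levels of 125 to 145 at 24 h, against 167 to 184 at 2 h. Endothelial markers had 10 lower and 1 higher of 15 (median -0.42). The slide block left 5 of them lower and 1 higher, and with spike-in scaling 2 and 1. Smooth muscle and pericyte markers had 9 lower and 2 higher of 14 (median -0.48), with 5 and 0 under the slide block and 4 and 2 under spike-in scaling. The part of these cell types in the matrix result was not tested. Genes of the adrenergic and G-protein list were lower in 17 of 27 cases and higher in 1 (median -0.29). The slide block left 8 of them lower and 0 higher, and with spike-in scaling 7 were lower and 2 higher. Among them Ednra, an endothelin receptor, fell 2.01-fold, and Rgs4, a brake on G-protein signalling, fell 2.17-fold.

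Markers of hypertrophy and stretch rose unevenly. Of 27 tested 13 were higher, 3 lower and 11 not called (median 0.15; slide block 9 higher and 2 lower; spike-in scaling 12 higher and 0 lower at a median of 0.40). Nppa, the atrial natriuretic peptide, was at 69.4, 67.8 and 71.3 at 24 h, against 35.7, 39.6 and 39.7 at 2 h and 45.4, 40.4 and 43.4 in the controls. The late cultures were above all others, and Nppa rose 1.82-fold over 2 h (0.86 ± 0.06, adjusted p = 2.32e-06). Nppb, the brain natriuretic peptide, was at 73.0, 78.8 and 65.5 at 24 h, against 47.0, 50.4 and 52.2 at 2 h, and rose 1.45-fold, a call that was lost with the slide block (adjusted p = 0.0584). Xirp2, which binds actin at intercalated discs, rose 2.65-fold, Enah, an actin-filament elongation factor, 1.95-fold, and Il1rl1, the receptor ST2, 1.76-fold. Acta1, skeletal alpha-actin, and Ankrd1, a stretch-responsive partner of titin, had log2 changes of 0.02 and 0.00 with adjusted p of 0.862 and 0.995; Ankrd1 was at 93.8, 93.8 and 89.6 at 24 h, against 91.8, 92.0 and 93.4 at 2 h, and 79.5, 68.1 and 74.6 in the controls. The sign of both genes changed with the setting, and with array median scaling Acta1 was called higher, at 0.18 with an adjusted p of 0.0458.

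Fast-response genes did not share 1 direction. Of 27 immediate-early genes 12 were higher, 3 lower and 12 not called at 24 h relative to 2 h (median 0.19). The slide block left 4 higher and 2 lower (median 0.15), and with spike-in scaling 10 and 0. Fosl1, an AP-1 subunit of the Fos family, was at 0.541, 0.702 and 0.466 at 24 h, against 0.312, 0.306 and 0.308 at 2 h, and rose 1.82-fold. Myc rose 1.52-fold. Atf3, a stress-induced factor, stood at 2.55, 2.87 and 1.97 at 24 h, against 1.84, 1.72 and 1.98 at 2 h, so the groups overlapped; its change of 0.40 ± 0.11 had an adjusted p of 0.013, and of 0.308 with the slide block. Fos was lower (-0.34 ± 0.11, adjusted p = 0.0242), with no call under the slide block or spike-in scaling, and Egr1 had a change of 0.02 with an adjusted p of 0.871, with a further probe of the other sign.

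Hspa1b, an inducible Hsp70 chaperone with a near-identical neighbour copy that may share its signal, was at 0.674, 0.612 and 0.734 at 24 h, against 1.37, 0.993 and 1.41 at 2 h and 0.678, 0.603 and 0.653 in the controls. The late cultures lay at the level of the controls, and the decrease from the early level was 1.85-fold (-0.89 ± 0.12, adjusted p = 2.37e-04). Dnajb1, its co-chaperone, fell 1.29-fold, a call lost with the slide block (adjusted p = 0.0634). The list as a whole had 7 higher, 2 lower and 17 of 26 not called (median 0.12; slide block 1 higher and 1 lower; spike-in scaling 2 higher and 1 lower). The heat-shock element GAANNTTC (a palindrome, searched in the window from 250 bases before to 50 after each RefSeq start in build GRCr8) stood in 12 of 23 heat-shock promoters available and in 8.34% of 27457 promoters. The 250 bases before the start of Dnajb1 are shown for this element, which is in capitals.
Dnajb1 promoter, chr19:41431142-41431391 (GRCr8, minus strand): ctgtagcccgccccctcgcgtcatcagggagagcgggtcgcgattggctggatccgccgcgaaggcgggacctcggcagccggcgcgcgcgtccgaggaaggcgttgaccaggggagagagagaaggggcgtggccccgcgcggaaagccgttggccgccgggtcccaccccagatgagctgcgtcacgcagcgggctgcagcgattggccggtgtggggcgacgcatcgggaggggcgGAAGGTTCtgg

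Other stress lists leaned upward. NRF2 and oxidative-stress genes had 11 higher and 5 lower of 26 (median 0.17), with 3 and 1 under the slide block and 9 and 0 under spike-in scaling; the haem-degrading enzyme Hmox1 rose 1.60-fold (adjusted p = 0.0544 with the slide block). Genes of p53 and growth arrest had 13 higher and 4 lower of 24 (median 0.18), with 5 and 0 under the slide block. With spike-in scaling 10 were higher and 0 lower. The largest rise in this list was that of the kinase Plk2, 2.00-fold. It was at 1.57, 1.69 and 1.35 at 24 h, against 0.790, 0.732 and 0.765 at 2 h. Rcan1, the calcineurin regulator, rose 1.54-fold. The unfolded protein and integrated stress response had 7 higher, 3 lower and 21 of 31 not called (slide block 1 and 2, spike-in scaling 4 and 0), and its median was -0.02 on the main scale and 0.23 with spike-in scaling, near the median of all genes on each.

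Genes that build lipids and ribosomes were mostly higher late. Of 31 cholesterol and lipid synthesis genes 24 were higher, 1 lower and 6 not called, and the median was 0.34 against -0.04 over all genes (slide block 9 higher and 1 lower, median 0.26; spike-in scaling 21 higher and 0 lower, median 0.59). Idi1, an isomerase of the mevalonate pathway, was at 9.24, 10.3 and 9.75 at 24 h, against 5.94, 5.69 and 6.24 at 2 h, and rose 1.64-fold (0.71 ± 0.06, adjusted p = 1.05e-05). Msmo1, a sterol demethylase, was at 51.7, 54.7 and 52.5 at 24 h, against 34.8, 34.4 and 36.5 at 2 h and 42.9, 40.6 and 40.1 in the controls, and rose 1.50-fold. The sterol transfer protein gene Stard4 rose 1.51-fold. Of 32 ribosome biogenesis genes 24 were higher, 0 lower and 8 not called (median 0.29; slide block 8 higher; spike-in scaling 19 higher). Gnl3, nucleostemin, rose 1.51-fold and the nucleolar proteins Nop56 and Bop1 rose 1.42-fold and 1.36-fold.

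The CCAAT box, which binds NF-Y and often stands beside sterol-responsive sites, was searched on both strands in the same 300-base windows. It stood in 17 of the 20 promoters found for the cholesterol and lipid list and in 37.7% of all promoters. The sterol-element letters TCACNCCAC stood in 0 of the 20 and in 1.13% of all promoters. For 2 genes that were below control at 2 h and above it at 24 h the 250 bases before the start are shown, with CCAAT or its reverse complement ATTGG in capitals.
Hmgcs1 promoter, chr2:53382054-53382303 (GRCr8, plus strand): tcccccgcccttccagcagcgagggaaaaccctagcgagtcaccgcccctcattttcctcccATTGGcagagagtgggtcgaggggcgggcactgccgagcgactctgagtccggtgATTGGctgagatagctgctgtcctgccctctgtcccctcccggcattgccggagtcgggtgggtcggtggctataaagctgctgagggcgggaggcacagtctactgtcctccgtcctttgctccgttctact
Msmo1 promoter, chr16:29746863-29747112 (GRCr8, plus strand): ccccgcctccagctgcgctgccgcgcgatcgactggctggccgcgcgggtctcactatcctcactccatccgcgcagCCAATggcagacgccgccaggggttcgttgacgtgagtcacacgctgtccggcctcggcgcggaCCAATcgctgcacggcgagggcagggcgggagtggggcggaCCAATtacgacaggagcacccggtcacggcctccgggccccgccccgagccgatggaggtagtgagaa

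Cell-cycle genes were higher in 21 of 38 cases and lower in 2 (median 0.16), by small amounts. The mitotic kinases Bub1 and Plk1 had changes of 0.38 and 0.30, and neither was called with the slide block. Against control the list's median was -0.13 at 2 h and -0.02 at 24 h, beside -0.01 and -0.08 over all genes. The late level was thus near control after a lower level at 2 h. Of this list 0 were called higher and 1 lower with the slide block, and 8 higher and 0 lower with spike-in scaling. Proteasome genes had 14 higher and 1 lower of 33 (median 0.13) and tRNA synthetases 10 higher and 1 lower of 19 (median 0.13). Each of these 2 lists had 1 higher and 0 lower with the slide block, and with spike-in scaling 5 and 4 were higher and 0 lower. Epicardial markers had 4 higher and 2 lower of 10 (slide block 2 and 2, spike-in scaling 4 and 1), with Krt18 rising 1.76-fold and Krt19 changing by -1.02. The Schwann and neural markers had 3 higher and 3 lower of 11 (slide block 1 and 0, spike-in scaling 3 and 0) and the red blood cell markers 0 higher and 2 lower of 4 (slide block 0 and 2, spike-in scaling 0 and 0). Circadian clock genes, Ciart among them, had 2 higher and 9 lower of 19, with 1 and 1 under the slide block and 1 and 0 under spike-in scaling. Actin and YAP targets had 3 higher and 10 lower of 29 (slide block 0 and 5, spike-in scaling 1 and 0). Protein degradation genes had 3 higher and 11 lower of 26, and all 11 lower calls were lost in both settings, where 2 were higher and 0 lower. MAPK feedback genes had 9 higher and 6 lower of 18 (slide block 2 and 1, spike-in scaling 6 and 0). Growth factors had 7 higher and 13 lower of 33 (slide block 3 and 8, spike-in scaling 6 and 2). The counts of all lists are to be read beside those over all 12638 genes. These were 2406 higher and 3799 lower on the main scale (19.0% and 30.1%). They were 465 and 1306 with the slide block, and 1702 and 706 with spike-in scaling.

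The genes that crossed the control level between early and late stretch were counted by a rule on the calls: a gene had to be called against control at 2 h and at 24 h, with opposite signs. Against the same 3 control cultures, 24 h gave 2192 calls upward (17.3%) and 4121 downward (32.6%), while 2 h gave 1220 calls in all (9.65%), and 116 genes (0.918%) met the rule. Of these, 54 were above control at 2 h and below it at 24 h, and 62 were below and then above. Since the rule fixes the direction between 24 h and 2 h, these values are given as a description. Just inside the threshold lay Egln1 and Nbl1, both with an adjusted p of 0.0497 at 2 h. Just outside it lay Mmp9, with changes of 0.58 at 2 h (adjusted p = 0.051) and -1.87 at 24 h, and Slc6a6, with -0.27 at 2 h (adjusted p = 0.0511) and 0.64 at 24 h.

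The crossing genes took small steps. The up-then-down genes had a median change from control of 0.29 at 2 h, 0.04 at 6 h and -0.37 at 24 h, and the down-then-up genes of -0.30, -0.04 and 0.27. The 6 h level lay between those of 2 h and 24 h for 51 of 54 and 61 of 62 genes. The rule puts 2 h and 24 h on opposite sides of control, so any 6 h level near control lies between them. Only 12 and 6 of these genes were called against control at 6 h, and the count is a description. The smaller of the 2 changes reached 0.5 for 8 and 5 genes and a full 2-fold for 0. All 3 arrays of both groups were above background for 50 of 54 and 54 of 62. The difference between 24 h and 2 h kept its sign with the slide block for 54 of 54 and 62 of 62. Of all 6205 called genes 6155 did so, and the block fit uses the same arrays, so this does not test the slide. The rule itself found 33 genes in the fit with the block, 30 of them among the 116. The count was 24 with spike-in scaling and 171 with scaling by the array median, and it lay between 46 and 53 when any 1 control culture was left out and at 74 without replicate 1 of 2 h.

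**Figure D4:**
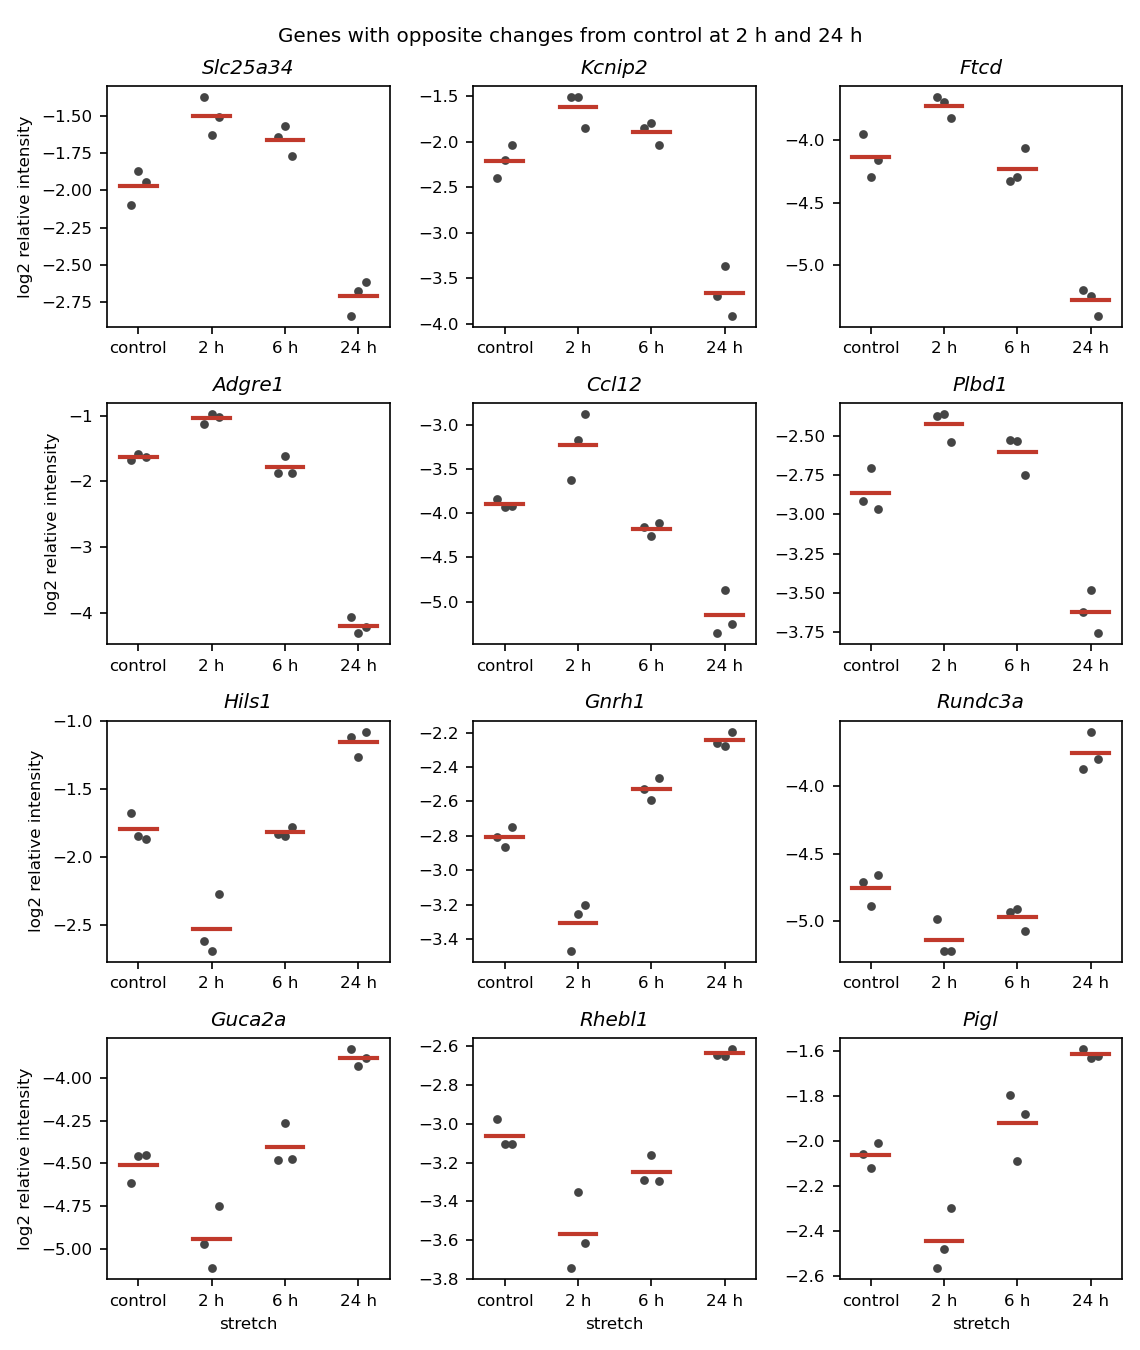
Log2 relative intensity (y axis, own scale in each panel) of 12 genes whose changes from control at 2 h and 24 h had opposite signs, in control cultures and after 2, 6 and 24 h of stretch (x axis). Points are single arrays and red bars are means of 3; the upper 6 genes peak at 2 h and are lowest at 24 h, and the lower 6 are lowest at 2 h and highest at 24 h.

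The up-then-down group held 5 of the macrophage and leukocyte markers and 5 genes of fatty acid oxidation. Relative to control, Kcnip2 stood at 0.59 after 2 h, 0.32 after 6 h and -1.45 after 24 h. Adgre1 changed by 0.59, -0.15 and -2.57, and Cd74 by 0.44, -0.46 and -2.80. The chemokine Ccl12 was at 0.0244, 0.0344 and 0.0263 at 24 h, against 0.0812, 0.111 and 0.135 at 2 h, with controls between 0.0656 and 0.0700. Ftcd, an enzyme of folate metabolism, changed by 0.41 and -1.15 at 2 h and 24 h, the mitochondrial carrier Slc25a34 by 0.47 and -0.74, the prostaglandin E2 receptor Ptger2 by 0.64 and -0.70, and the phospholipase-like Plbd1 by 0.43 and -0.76. C8h19orf38 changed by 0.52 and -0.53. RT1-Da (0.87 and -2.64) and Il7r (0.95 and -0.76) had no array of 24 h above background, so the size of their late change is not resolved. For Il7r only 1 of 3 control arrays was above background as well, so its fall below control is itself not resolved. Among the other members, chosen after their values were seen, were the fatty acid genes Ppara (0.31 and -0.43), Acaa2 (0.29 and -0.48), Decr1 (0.29 and -0.39) and Acsl1 (0.19 and -0.18) and the cardiac factors Irx3 (0.19 and -0.47) and Irx5 (0.23 and -0.27).

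The down-then-up group had fewer members in any list, 5 of them in cholesterol and lipid synthesis. Hils1, which encodes a linker histone known from spermatids, was at 0.461, 0.418 and 0.474 at 24 h, against 0.163, 0.155 and 0.207 at 2 h and 0.313, 0.278 and 0.275 in the controls, changes of -0.73 at 2 h and 0.64 at 24 h. Gnrh1, gonadotropin-releasing hormone, changed by -0.50 and 0.56, Rundc3a by -0.39 and 1.00, Igsf11, an adhesion protein, by -0.41 and 0.80, Guca2a, guanylin, by -0.44 and 0.62, Rhebl1, a small GTPase that acts on mTORC1, by -0.51 and 0.43, Pigl, an enzyme of GPI-anchor synthesis, by -0.38 and 0.45, and Dner, a Notch ligand, by -0.44 and 0.40. The early dip of Ciart (-0.75), Kcne2 (-0.82) and Spdya (-0.44) was measured with no array of 2 h above background, and that of Clec2d2l2 (-0.61) with 1 array of 3, so their size at 2 h is not resolved. For Ciart only 1 of 3 control arrays was above background as well, so the dip itself is not resolved. The sterol genes, of which Hmgcs1 and Sc5d were chosen after their values were seen, took smaller steps: Msmo1 changed by -0.23 and 0.36, Stard4 by -0.23 and 0.37, Hmgcs1, the cytosolic synthase, by -0.21 and 0.28, and Sc5d, a sterol desaturase, by -0.19 and 0.24. Adora1, the A1 adenosine receptor, was chosen after its values were seen and changed by -0.32 and 0.81. Of the 116 genes, 94 were in no list.

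Of 208 named genes called between 24 h and 2 h, 207 kept their sign with slide as a fixed block and 142 were called again. Over all 6205 called genes these counts were 6155 and 1743. Many named genes were chosen by a large change in the fit without the block, so their counts do not test the slide. Within slide 2 the 3 arrays of 24 h could be set against 6 h through 1 array of 6 h, without a test. Of the 30 genes with the largest changes, 29 had the sign of the whole change in that step, Krt6c being the exception. Adgre1 differed by -2.34, Kcnip2 by -1.62, Stmn4 by 1.88 and Gdf15 by 1.12 on the log2 scale. Within slide 1, the step from 2 h to the 2 arrays of 6 h was -0.70 for Adgre1, -0.20 for Kcnip2, 0.43 for Stmn4 and 0.21 for Gdf15. Of the same 30 genes 28 had the sign of the whole change there, and Gpr18 and Btk did not. The 30 genes were chosen by the whole change, and each step shares its arrays of 24 h or 2 h with that change. The counts of matching signs are therefore descriptions and do not test the slide.

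**Figure D5:**
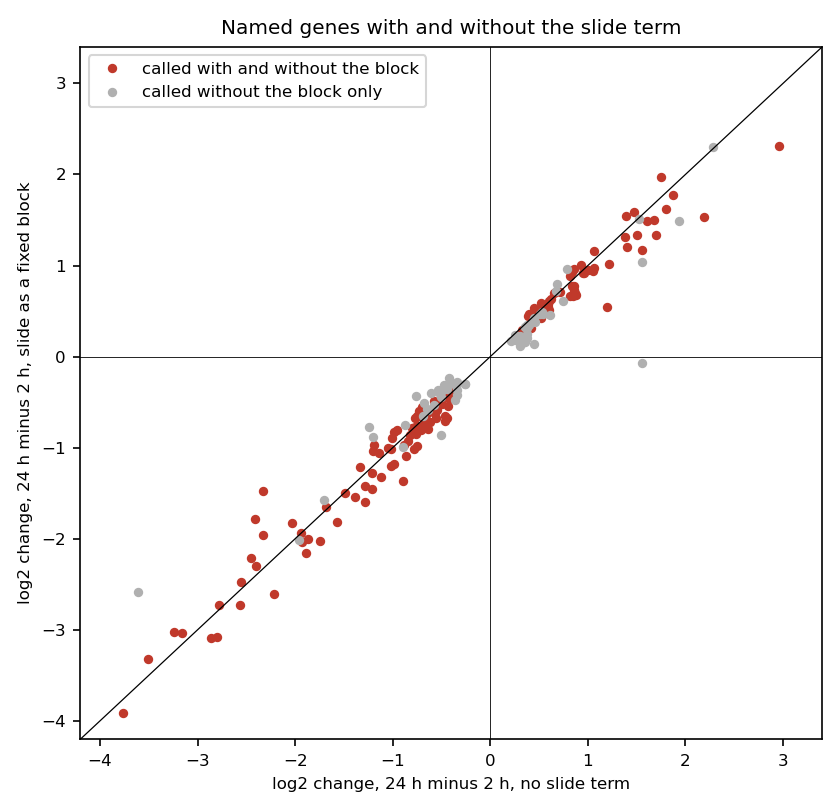
Log2 change, 24 h minus 2 h, of the 208 called named genes without a slide term (x axis) and with slide as a fixed block (y axis); the diagonal marks equal values. Red points, 142 genes, were called in both fits and grey points, 66 genes, only without the block; Krt6c, at 1.56 and -0.070, is the gene that changed sign.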

How the data were processed

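Total RNA of 12 cultures was labelled with Cy3 and read on 12 single-colour arrays of 60-base probes placed on rat genome build rn4 by the array design. Per the file headers, the authors' scanner files hold a processed intensity on a linear scale, background-subtracted and without scaling between arrays, and mean and background intensity values; flags of single spots, 0 or 1, are deposited as other values. The headers name Agilent Feature Extraction 11.0.1.1, the submitters' processing notes 10.7.3.1. The deposited series matrix holds an intensity for 28902 probes; its column medians lay between 7.02 and 7.14 on the log2 scale with a rank correlation of at least 0.9987 to each array's own mean signal, its scaling between arrays is unknown, and it served as an alternative.

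Here log2 of the processed signal was taken, outlier spots were left out (224 to 359 of 58717 per array), spots of 1 probe were averaged and each array's 75th percentile was subtracted. Of 30367 probes, 18997 passed the background test in every replicate of some group; 15122 had a gene name (18005 probes of the design were named by accession, 2668 by symbol, 547 by synonym and 1933 kept the file's name, 7214 had none). The brightest kept probe stood for a gene; of 2257 genes with more than 1, 1115 were called and 200 of those had a further probe of the other sign. Limma 3.58.1 in R 4.3.3 fitted 4 group means on all 12 arrays, with Benjamini-Hochberg adjustment over 12638 genes and a threshold of 0.05; errors are model SEs. The fit was tested on simulated data. Folds with a group below background on every array are bounds against the lowest signal well above background. The number of arrays limits precision.

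The comparison, the members and the 34 gene lists (906 genes, 807 tested) were chosen with earlier results of these data known. Named were the 15 genes with the largest called rise and fall and no overlap, 12 opposite-sign genes per direction, up to 5 called members per list and 16 fixed genes, 211 in all. Results for a few genes are not reported here. Replicate numbers did not pair the cultures: the deviations of same-numbered 24 h and 2 h cultures correlated at 0.11, 0.06 and 0.03. RefSeq promoters (GRCr8) were matched by symbol. Alternatives were other scalings, normexp background with an offset of 50, the series matrix, filters, probe averaging, slide and replicate blocks, the compared groups alone and each replicate left out.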

Additional observations from a re-analysis of the deposited data

Results flagged for a closer look

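The change from control differed between 24 h and 2 h in direction for 23 named genes: every array of 24 h and every array of 2 h lay on its own side of the control mean, on opposite sides. The rule that chose them fixes this direction, so the differences, 24 h minus 2 h on the log2 scale, are descriptions. Among genes above control early and below it late, the difference was -3.16 for Adgre1, -2.04 for Kcnip2, -1.93 for Ccl12, -1.57 for Ftcd, -1.21 for Slc25a34, -1.19 for Plbd1 and -1.04 for C8h19orf38. Among genes below control early and above it late, it was 1.39 for Rundc3a, 1.38 for Hils1, 1.06 for Gnrh1, 1.06 for Guca2a, 0.93 for Rhebl1, 0.84 for Dner and 0.83 for Pigl. Some of these sizes depended on the background step. With normexp the difference was -2.46 for Adgre1, -0.59 for C8h19orf38, 1.18 for Hils1, 0.39 for Guca2a and 0.22 for Dner. For the remaining 9 genes the dimmer group was not well above background on all 3 arrays, so the size of the difference is not resolved. At 24 h this held for RT1-Da (-3.51) and Il7r (-1.70) on all arrays, for Cd74 (-3.24) on 2 and for Ptger2 (-1.34) on 1. At 2 h it held for Ciart (1.87), Kcne2 (1.47) and Spdya (0.95) on all arrays, for Clec2d2l2 (1.19) on 2 and for Igsf11 (1.22) on 1.

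Probes without a gene name were outside the comparison. Of 3875 such probes, 1478 were called between 24 h and 2 h, 289 higher and 1189 lower, and 2 were well above background on all 3 arrays of 24 h and on none of the controls.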

How the results depend on the processing

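The count of genes called was 2408 with spike-in scaling and 1771 with slide as a fixed block, and stayed within 1.5 times of 6205 in all other settings (5251 to 6318 with 1 replicate left out). Opposite-sign genes numbered 24 with spike-in scaling, 60 with normexp, 39 with no filter on dim probes, 33 with slide as a fixed block, 69 in the fit of only the groups compared and 46 to 108 with 1 replicate left out, against 116; 86 of them changed by at least 0.2 at both times. The cause of these shifts was not tested. Same-numbered cultures did not pair (correlations of 0.11, 0.06 and 0.03). With the replicate block 6031 genes were called and 90 had opposite signs. Counting only genes above background on all 6 arrays, chosen after seeing the data, left 5797 and 104.

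Signs turned for genes with changes near 0 or dim signals. Ankrd1 changed by 0.16 with array median scaling, 0.17 with quantile normalization, 0.25 with spike-in scaling and 0.0052 with slide as a random block, and by -0.012 to 0.022 with 1 replicate left out. Acta1 changed by 0.18 with array median scaling (adjusted p = 0.0458, called only there), by -0.027 with normexp and -0.044 to 0.051 with 1 replicate left out, and Egr1 by -0.091 with probes averaged and -0.13 to 0.13. With normexp, Dusp2 changed by -0.022, Hsd3b1 by -0.014, Proca1 by -0.011 and Spdya by -0.019; Krt6c changed by -0.070 with slide as a fixed block. Of 211 named genes, spike-in scaling removed the call of 62 and the slide block of 66, the replicate block of 2. For dim probes the size of a change is not resolved.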
